A study of Mus musculus with 2 samples.

Results

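The genes described here are 34 enzymes, or enzyme subunits, of the pentose phosphate pathway and of nucleotide synthesis. They were picked out by gene symbol from the 55416 features of the deposited matrices, and all 34 were found. Nuclei of whole fetal mouse brain were sequenced one by one, in 1 wildtype library and 1 library in which Cav1, the gene for caveolin 1, was knocked out. Each captured RNA is tagged with its nucleus' barcode and with a random molecular tag, and RNAs with distinct tags (UMIs) are counted, so PCR copies do not add to the count. Strain, sex, fetal day, the number of animals behind a library and the part of Cav1 that was deleted are not given in the sources used here. With 2 libraries in all, differences between genotypes carry no replicate check and no p-value, and every interval below is a 95% interval that covers counting error only.

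The pentose phosphate pathway draws glucose 6-phosphate into an oxidative branch, which makes NADPH, and a reversible non-oxidative branch, which interconverts sugar phosphates; its product ribose 5-phosphate is activated to PRPP, the sugar donor of all nucleotides. Purines are assembled stepwise on PRPP, whereas the pyrimidine ring is made first and then joined to it, and folate-bound one-carbon units are used in purine and thymidylate synthesis. Cells that replicate DNA must in addition reduce ribonucleotides to deoxynucleotides. In the fetal brain this demand falls on the dividing progenitors of the germinal zones, whereas the neurons that they produce have left the cell cycle.

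After filtering, the wildtype-labelled library held 6686 nuclei with 17205381 UMIs and the knockout-labelled library 6680 nuclei with 19878903 UMIs, with medians of 2134 and 2366 UMIs per nucleus. Of the kept barcodes, 10 occurred in both libraries. Cav1 had 71 wildtype-labelled and 80 knockout-labelled UMIs (log2 ratio of levels −0.04, −0.52 to 0.45). Its total therefore does not separate the labels, although a cluster led by Flt1 held 17 and 1 of these UMIs; a 3′ count checks a knockout only where the deleted part is counted. The level of a gene is its UMIs per 1000000 UMIs of the summed nuclei, written CPM. Where a pair of values is given without further words, the wildtype-labelled library comes before the knockout-labelled one.

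Nuclei of both libraries were clustered together, and clusters were named from marker lists. A first class of progenitor-like nuclei, clusters 17 and 18, had all 26 markers of the G2 and M phases of the cell cycle at least 2-fold above the other nuclei. It held 371 wildtype-labelled and 308 knockout-labelled nuclei. Cluster 18 also had 15 of 20 radial glia markers raised, whereas cluster 17 had 2 of 20, with 3 of 10 intermediate progenitor, 3 inhibitory progenitor and 4 inhibitory neuron markers. A second class, clusters 13 and 16, had 16 and 12 of 20 radial glia markers raised in this way and 0 of the 26 G2 and M markers, in 624 and 426 nuclei. The selection rule called these classes dividing and non-dividing progenitors. Clusters 13 and 16 also had 28 and 23 of 36 S-phase markers at least 2-fold up, which goes against the name non-dividing, so the classes are called G2/M-high and G2/M-low progenitor-like here. Neuron-like nuclei numbered 4245 and 4082, and 1446 and 1864 nuclei stayed unnamed. The summed level of the 20 neuron markers was 16932 and 17695 CPM in the neuron-like class, against 3489 and 4050 CPM in the G2/M-high and 3879 and 3725 CPM in the G2/M-low class.

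Together the 34 genes made up 1450 CPM of the wildtype-labelled and 1345 CPM of the knockout-labelled G2/M-high nuclei. The G2/M-low class was similar, at 1352 and 1335 CPM, and the neuron-like class lower, at 736 and 742 CPM. Of the 34 genes, 10 were at least 2-fold higher in G2/M-high than in neuron-like nuclei in both libraries, and 9.66% of all 16247 genes with enough UMIs met the same rule. In the G2/M-low class 10 of 34 were also at least 2-fold above the neuron-like class, against 9.12% of 16299 genes. The opposite direction, at least 2-fold higher in neuron-like than in G2/M-low nuclei, was met by 0 of 34 genes and by 12.7% of all genes. The median log2 ratio of the 34 genes to neuron-like nuclei was 0.74 in the G2/M-high and 0.77 in the G2/M-low class, where the medians over all genes tested were 0.10 and 0.22. Such a share and median describe the list; they are not a test of it, since the classes were cut from the same nuclei.

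Under another scaling, the trimmed mean of M-values (TMM), the log2 ratios to neuron-like nuclei moved by −0.19 in the G2/M-high and by −0.28 in the G2/M-low class. Of the 34 genes, 9 and 7 then met the rule. The share of all genes under this scaling was not computed. Between the progenitor-like classes themselves, none of the 30 with enough UMIs was at least 2-fold higher in the G2/M-high class in both libraries, against 3.08% of 10248 genes, and 0 of 30 met the opposite rule, against 0.712%.

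**Figure D1:**
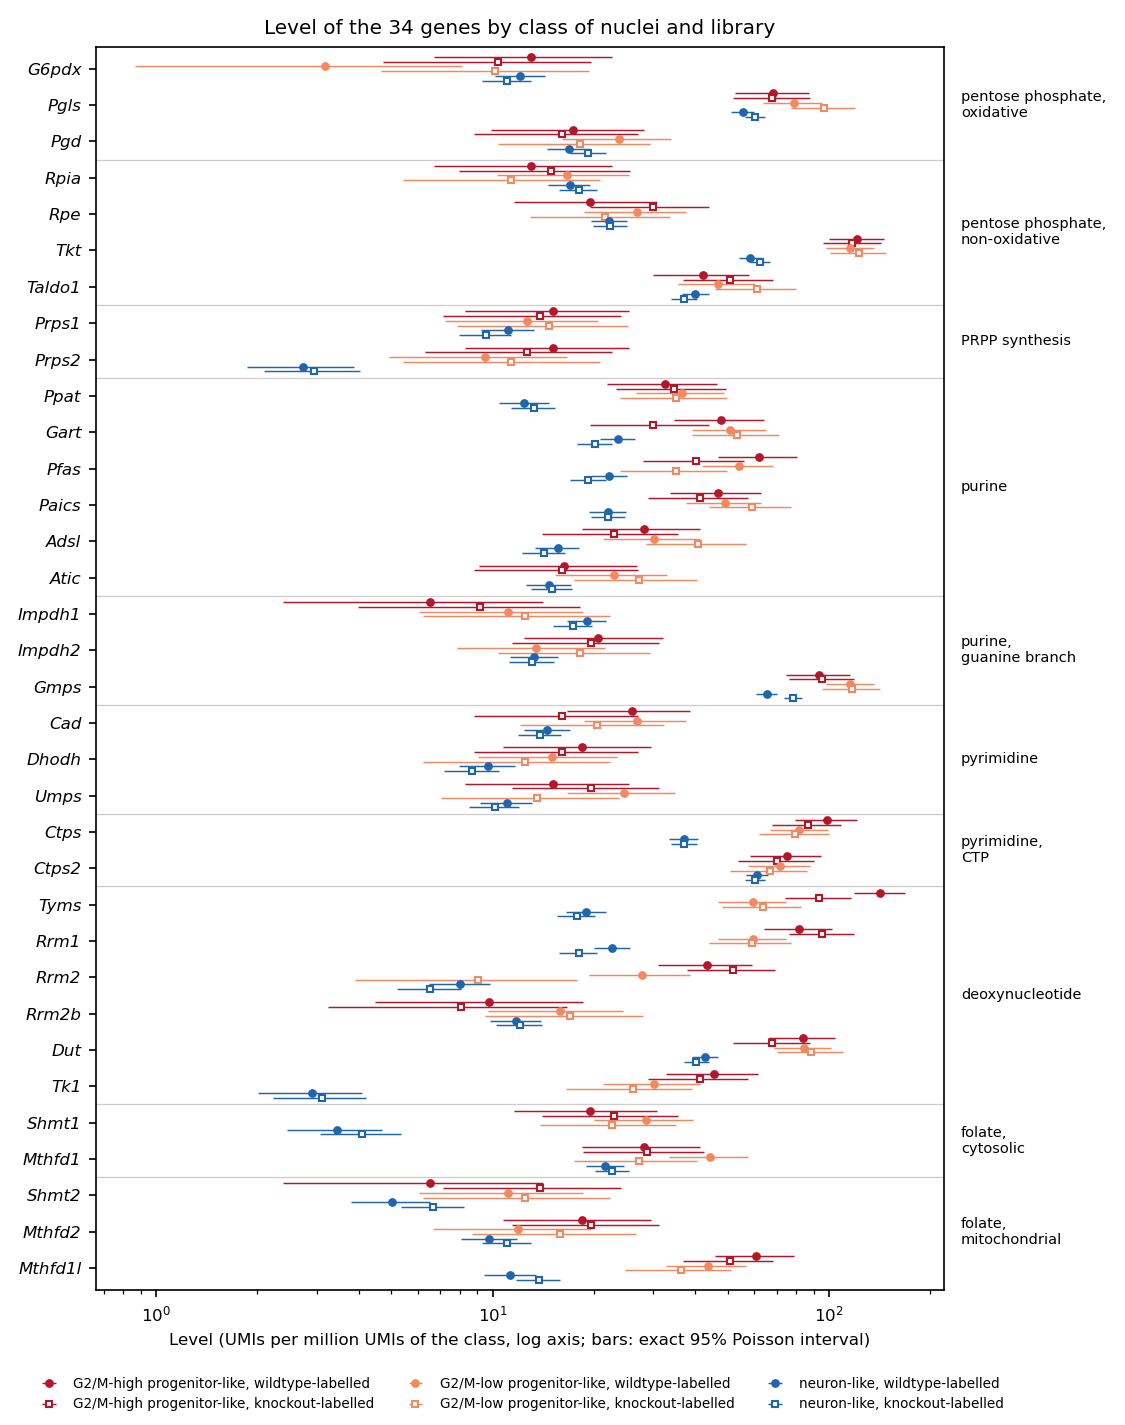
Level of each gene (CPM, log axis) in G2/M-high progenitor-like, G2/M-low progenitor-like and neuron-like nuclei of each library, with exact 95% Poisson intervals. The blue neuron-like points lie left of the red and orange points for Tk1, Tyms, Rrm1, Shmt1 and Ppat in both libraries, and their intervals overlap for Rpia, Prps1 and Rrm2b.

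Deoxynucleotide enzymes showed the widest range of class differences. Tk1, which encodes cytosolic thymidine kinase and salvages thymidine, had 155 and 165 UMIs over all nuclei of the wildtype-labelled and knockout-labelled libraries. Its level was 45.5 and 41.4 CPM in G2/M-high, 30.1 and 26.1 CPM in G2/M-low and 2.91 and 3.10 CPM in neuron-like nuclei. The neuron-like intervals lay below both progenitor-like intervals in each library. Relative to neuron-like nuclei this was 15.6-fold (log2 3.97, 3.27 to 4.67) and 13.3-fold (3.74, 3.05 to 4.42) in the G2/M-high class, and 10.3-fold and 8.40-fold in the G2/M-low class. Tk1 had the largest mean log2 ratio to neuron-like nuclei of the 34 genes in both classes.

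Thymidylate synthase, encoded by Tyms, methylates dUMP to dTMP. Its UMIs numbered 572 and 534. The level of Tyms was 142 and 93.2 CPM in G2/M-high, 59.4 and 63.5 CPM in G2/M-low and 19.0 and 17.8 CPM in neuron-like nuclei, so that the 3 classes kept the same order in both libraries. G2/M-high nuclei stood 7.49-fold (log2 2.90, 2.58 to 3.22) and 5.24-fold (2.39, 2.01 to 2.76) above neuron-like nuclei. Against the G2/M-low class Tyms was 2.39-fold higher in the wildtype-labelled library (log2 1.26, 0.84 to 1.69) but 1.47-fold in the knockout-labelled one (0.55, 0.05 to 1.07), which left it outside the 2-fold rule although both intervals lay above 0.

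Ribonucleotide reductase, the enzyme that makes deoxynucleotides from ribonucleotides, joins a large subunit from Rrm1 with a small subunit from Rrm2 or, outside S phase, from Rrm2b. Rrm1 had 536 and 538 UMIs, and stood at 81.3 and 95.5 CPM in G2/M-high, 59.4 and 58.9 CPM in G2/M-low and 22.7 and 18.02 CPM in neuron-like nuclei. Rrm2 had 218 and 216 UMIs, with 43.4 and 51.8 CPM in G2/M-high, 27.7 and 9.06 CPM in G2/M-low and 8.03 and 6.51 CPM in neuron-like nuclei. The G2/M-low value of Rrm2 thus differed between libraries, resting on 35 and 8 UMIs, and G2/M-high nuclei were 1.56-fold (log2 0.65, −0.05 to 1.34) and 5.71-fold (2.51, 1.41 to 3.81) above it. Over neuron-like nuclei, the G2/M-high class was higher by log2 1.84 (1.45 to 2.22) and 2.41 (2.03 to 2.77) for Rrm1, and by 2.43 (1.86 to 2.98) and 2.99 (2.44 to 3.53) for Rrm2. Rrm2b did not share this pattern: its 208 and 260 UMIs gave 9.75 and 8.05 CPM in G2/M-high, 15.84 and 16.997 CPM in G2/M-low and 11.7 and 12.0 CPM in neuron-like nuclei, with overlapping intervals throughout.

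As a share of nuclei at an equal depth of 1000 UMIs, Rrm2 was detected in 17 of 359 wildtype-labelled (4.74%, exact interval 2.78% to 7.47%) and 20 of 299 knockout-labelled (6.69%, 4.13% to 10.1%) G2/M-high nuclei. In neuron-like nuclei, which serve as the level for comparison here, the shares were 0.791% and 0.714%, and they are not read as expression in neurons. That class was named from markers. Its S markers summed to 562 and 527 CPM and its G2 and M markers to 324 and 290 CPM. Whether some of its nuclei replicated DNA was not tested. Free RNA was present: the 12 erythroid markers summed to 961 and 697 CPM in neuron-like and to 993 and 761 CPM in G2/M-high nuclei. The part of free RNA in the shares was not tested. Median depths before thinning were 2284 and 2573 UMIs in G2/M-high and 2300 and 2682 UMIs in neuron-like nuclei, and the unthinned shares were 9.43% and 14.0% against 1.98% and 1.96%. Thinning left out 12 and 9 shallower G2/M-high nuclei and 202 and 160 neuron-like nuclei. The share for Tyms at equal depth was 13.6% and 9.36% in G2/M-high against 1.98% and 2.07% in neuron-like nuclei.

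The starts of Rrm1 and Rrm2 are shown because both subunits were higher in progenitor-like than in neuron-like nuclei of both libraries, apart from Rrm2 in the knockout-labelled G2/M-low class (log2 0.48, −0.78 to 1.52). The sequences are the 220 bases before the RefSeq start site, on the gene's strand and the GRCm38.p6 build, at chr7:102441475-102441694 (plus strand) for Rrm1 and chr12:24708034-24708253 (plus strand) for Rrm2. Capitals mark a CCAAT box, a sequence that binds the factor NF-Y.
Rrm1: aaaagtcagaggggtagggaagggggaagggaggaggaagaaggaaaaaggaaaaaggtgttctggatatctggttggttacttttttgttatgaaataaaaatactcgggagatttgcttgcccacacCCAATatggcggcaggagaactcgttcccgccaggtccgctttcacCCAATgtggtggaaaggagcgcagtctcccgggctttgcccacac
Rrm2: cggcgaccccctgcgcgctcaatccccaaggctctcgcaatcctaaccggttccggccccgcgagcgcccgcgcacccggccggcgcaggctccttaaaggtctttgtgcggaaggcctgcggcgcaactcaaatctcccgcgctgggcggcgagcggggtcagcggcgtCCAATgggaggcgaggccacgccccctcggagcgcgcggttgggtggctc
The letters CCAAT occurred on either strand of the 250 bases before the start in 12 of the 31 genes that the promoter table held (38.7%), and in 37.5% of 27025 genes. An E2F site, searched as TTTCCCGC, TTTCGCGC, TTTGCCGC or TTTGGCGC on both strands, was in 1 of 31 genes, Ppat, and in 2.16% of all. The CHR element TTTGAA was found in 3 genes (Rpe, Prps2 and Umps) and 18.3% of all, and the E-box CACGTG in 4 (Paics, Atic, Impdh2 and Tyms) and 6.86% of all. These are matches of letters, not measured binding, and the 31 genes hold CCAAT about as often as genes at large.

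Dut, whose product dUTPase removes dUTP and supplies dUMP, had 910 and 953 UMIs. Its level was 83.5 and 67.9 CPM in G2/M-high, 84.0 and 88.4 CPM in G2/M-low and 42.9 and 40.3 CPM in neuron-like nuclei. Both progenitor-like classes lay above the neuron-like class in both libraries without meeting the 2-fold rule: G2/M-low nuclei were 1.96-fold and 2.19-fold higher, just outside it in the wildtype-labelled library. Of the 6 deoxynucleotide genes, 4 met the rule in the G2/M-high class (Tyms, Rrm1, Rrm2 and Tk1), against 9.66% of all genes. In the G2/M-low class 3 of them (all but Rrm2) met it, against 9.12% of all genes.

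**Figure D2:**
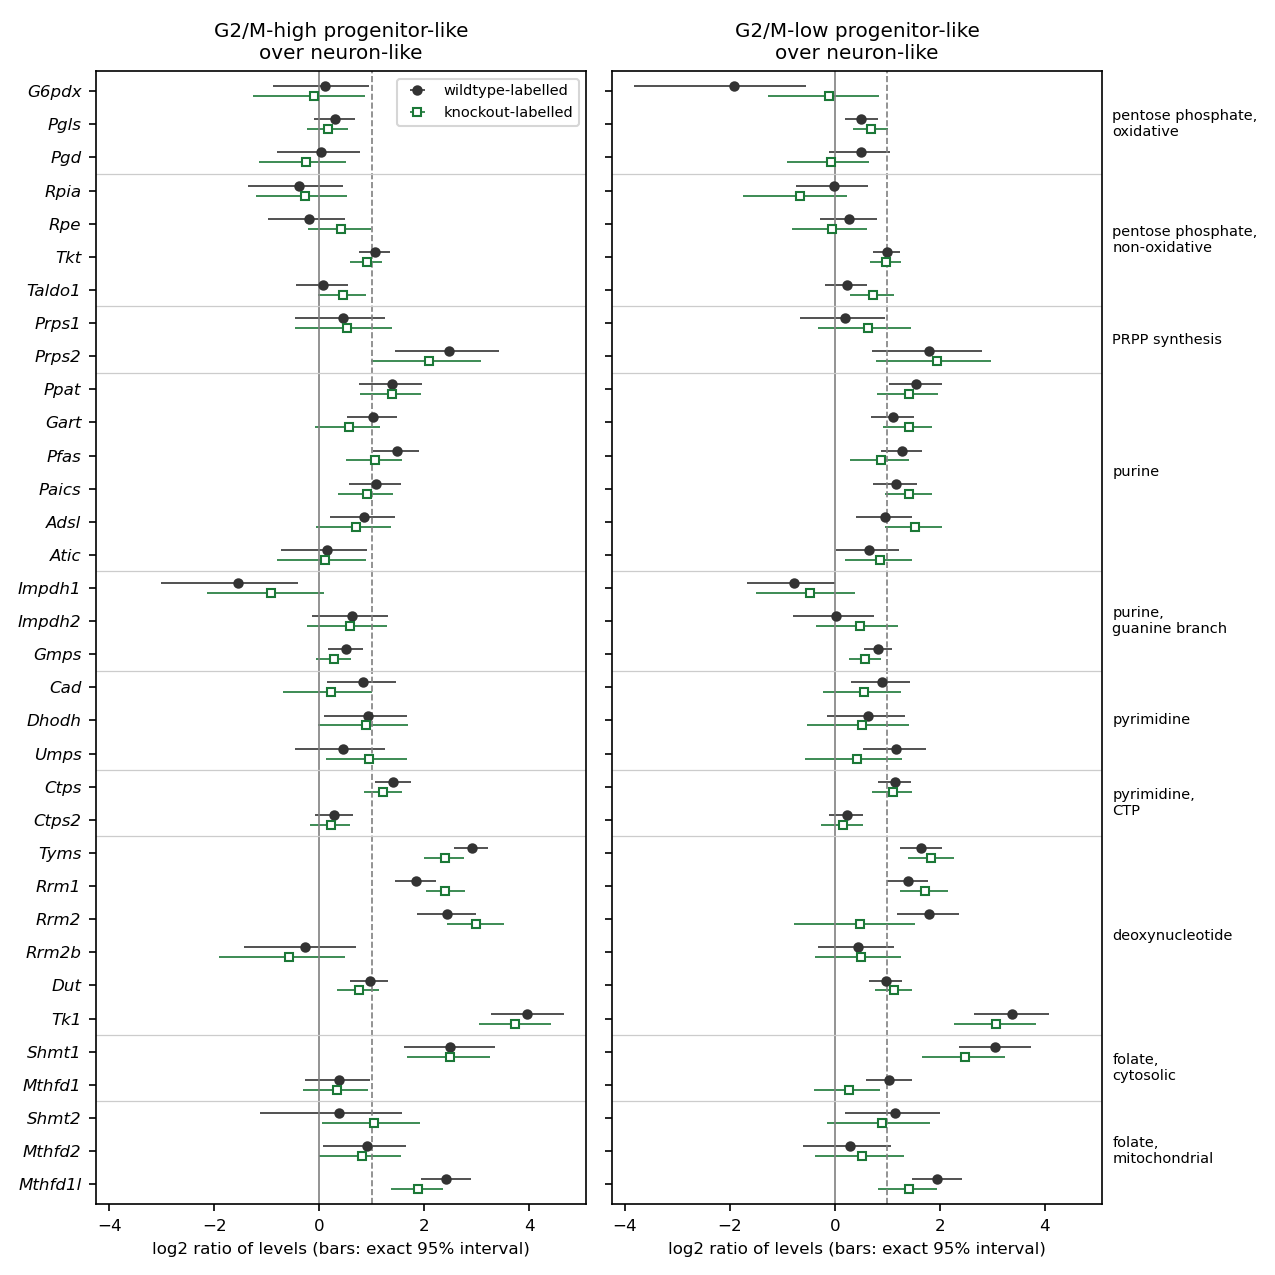
Log2 ratio of the level in G2/M-high (left) and G2/M-low (right) progenitor-like nuclei to that in neuron-like nuclei, per gene and library, with exact 95% intervals; the dashed line marks 2-fold. Tk1 lies farthest to the right in both panels, at 3.97 and 3.74 on the left, and Impdh1 lies left of 0 in both libraries.

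De novo purine synthesis runs in 10 reactions from PRPP to IMP, and 6 genes encode its enzymes. All 6 were higher in progenitor-like than in neuron-like nuclei of both libraries, in both classes, with medians of log2 0.89 for G2/M-high and 1.24 for G2/M-low. Over all genes tested the medians were 0.10 and 0.22. The interval lay above 0 in both libraries for 3 of the 6 in the G2/M-high and for all 6 in the G2/M-low class. Neither for this nor for the direction was the share of all genes computed, so these counts are no result about the 6 genes. Ppat encodes the amidotransferase that takes the committed step. With 291 and 307 UMIs, Ppat stood at 32.5 and 34.5 CPM in G2/M-high, 36.4 and 35.1 CPM in G2/M-low and 12.4 and 13.2 CPM in neuron-like nuclei. It was the only one of the 6 to meet the 2-fold rule in both classes, at 2.61-fold in each library in the G2/M-high class and 2.93-fold and 2.65-fold in the G2/M-low class.

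Gart, a trifunctional enzyme of early and middle steps, had 475 and 471 UMIs and 50.7 and 53.3 CPM in G2/M-low against 23.6 and 20.1 CPM in neuron-like nuclei. In the G2/M-high class Gart stood at 47.7 and 29.9 CPM, and only the first of these was above 2-fold. Paics, which carries out the carboxylase and SAICAR synthetase steps, had 520 and 565 UMIs. Its level was 46.6 and 41.4 CPM in G2/M-high, 49.1 and 58.9 CPM in G2/M-low and 22.1 CPM in neuron-like nuclei of each library. Gart and Paics met the rule in the G2/M-low class alone. Whether the classes differ in this was not tested.

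Pfas, the FGAM synthase of the same pathway, had 454 and 433 UMIs, with 61.8 and 40.3 CPM in G2/M-high, 53.9 and 35.1 CPM in G2/M-low and 22.2 and 19.2 CPM in neuron-like nuclei. It was at least 2-fold higher in the G2/M-high class, by 2.78-fold and 2.09-fold, and just outside the rule in the G2/M-low class, by 2.42-fold and 1.83-fold. Adsl, adenylosuccinate lyase, works both in this pathway and in AMP formation; its 316 and 354 UMIs gave 28.2 and 23.0 CPM, 30.1 and 40.8 CPM, and 15.6 and 14.2 CPM in the 3 classes in the same order. The last enzyme, encoded by Atic, had 291 and 313 UMIs and differed least, with 16.3 and 16.1 CPM in G2/M-high against 14.7 and 15.0 CPM in neuron-like nuclei. For Atic the G2/M-low level was 23.0 and 27.2 CPM.

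Ppat and Paics lie head to head on chromosome 5, and in GENCODE on GRCm39 the gene models overlap by 298 bases at their starts (chr5:77099139-77099436). The sequence before each start is shown because the genes overlap at their starts and were both higher in G2/M-low than in neuron-like nuclei. The 220 bases before the RefSeq start on GRCm38.p6 are chr5:76951579-76951798 (minus strand) for Ppat and chr5:76951082-76951301 (plus strand) for Paics. Each thus lies downstream of the RefSeq start of the other gene, and not between the starts. Capitals mark the opposite strand of the E2F site TTTCCCGC in Ppat, with its matches at 211 and 158 bases before the start, and CCAAT in Paics.
Ppat: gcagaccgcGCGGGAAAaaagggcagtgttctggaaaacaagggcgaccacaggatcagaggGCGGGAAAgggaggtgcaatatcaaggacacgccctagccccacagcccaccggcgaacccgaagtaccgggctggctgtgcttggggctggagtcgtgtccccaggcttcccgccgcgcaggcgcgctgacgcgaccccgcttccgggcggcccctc
Paics: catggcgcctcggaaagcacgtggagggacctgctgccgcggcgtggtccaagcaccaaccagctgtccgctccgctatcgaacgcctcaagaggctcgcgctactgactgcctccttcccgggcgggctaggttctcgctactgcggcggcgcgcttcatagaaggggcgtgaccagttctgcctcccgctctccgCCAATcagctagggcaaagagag
How strand was used in the counting is not stated in the sources used here. To which gene UMIs of the shared stretch were assigned was not tested.

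From IMP, the guanine branch uses IMP dehydrogenase, encoded by Impdh1 and Impdh2, and then GMP synthetase, encoded by Gmps. Impdh1 went the other way from most genes described here. It had 277 and 310 UMIs, and 6.503 and 9.20 CPM in G2/M-high, 11.1 and 12.5 CPM in G2/M-low and 19.1 and 17.3 CPM in neuron-like nuclei. The neuron-like level was the highest of the 3 in both libraries, although the G2/M-high interval excluded 0 in the wildtype-labelled library only (log2 −1.55, −3.01 to −0.41) and not in the knockout-labelled one (−0.91, −2.14 to 0.09).

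Impdh2 had 270 and 294 UMIs and stood at 20.6 and 19.6 CPM in G2/M-high, 13.5 and 18.1 CPM in G2/M-low and 13.3 and 13.1 CPM in neuron-like nuclei, with overlapping intervals. Gmps, with 1277 and 1614 UMIs, was at 93.2 and 95.5 CPM in G2/M-high, 116 and 117 CPM in G2/M-low and 65.3 and 78.1 CPM in neuron-like nuclei. G2/M-low nuclei exceeded neuron-like nuclei by log2 0.82 (0.56 to 1.08) and 0.58 (0.27 to 0.87) for Gmps. None of the 3 guanine branch genes met the 2-fold rule in either class, against 9.66% of all genes in the G2/M-high and 9.12% in the G2/M-low class. For so few genes this is near the shares.

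Pyrimidine synthesis begins with Cad, a protein of 3 fused enzymes, goes on through the mitochondrial dehydrogenase Dhodh and ends in UMP made by Umps. Cad had 287 and 292 UMIs and 26.0 and 16.1 CPM in G2/M-high against 14.6 and 13.9 CPM in neuron-like nuclei. For Dhodh, 186 and 198 UMIs gave 18.4 and 16.1 CPM against 9.70 and 8.71 CPM. Umps, with 215 and 232 UMIs, stood at 15.2 and 19.6 CPM against 11.0 and 10.1 CPM. All 3 were above the neuron-like level in both classes and both libraries, by a median of log2 0.70 in the G2/M-high and 0.72 in the G2/M-low class. For 0 of 3 did the interval lie above 0 in both libraries, and the share of all genes was not computed for this. None met the rule, against 9.66% and 9.12% of all genes in these classes, and for 3 genes that is near the shares.

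CTP synthase, which aminates UTP, is encoded by Ctps and Ctps2. Ctps had 779 and 842 UMIs, with 98.6 and 86.3 CPM in G2/M-high, 81.6 and 79.3 CPM in G2/M-low and 37.0 and 37.1 CPM in neuron-like nuclei. Ctps met the rule in both classes, at 2.67-fold and 2.33-fold in G2/M-high and 2.21-fold and 2.14-fold in G2/M-low nuclei. Ctps2 had 1060 and 1186 UMIs and was nearly level, at 74.8 and 70.2 CPM, 71.3 and 66.9 CPM, and 61.1 and 60.3 CPM in the same order of classes.

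PRPP itself is made by PRPP synthetases, of which Prps1 and Prps2 were measured. Prps2 had the fewest UMIs of the 34 genes in the wildtype-labelled library, with 96 UMIs there and 108 in the knockout-labelled library. Its level was 15.2 and 12.7 CPM in G2/M-high, 9.504 and 11.3 CPM in G2/M-low and 2.74 and 2.95 CPM in neuron-like nuclei, which is 5.55-fold and 4.29-fold, and 3.48-fold and 3.84-fold, above the neuron-like level. Prps1, with 208 UMIs in each library, stood at 15.2 and 13.8 CPM, 12.7 and 14.7 CPM, and 11.1 and 9.54 CPM in the 3 classes, with overlapping intervals.

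Folate enzymes of the cytosol and of mitochondria differed within each compartment. Shmt1, the cytosolic serine hydroxymethyltransferase, which transfers the carbon of serine to tetrahydrofolate, had 136 and 135 UMIs. Its level was 19.5 and 23.0 CPM in G2/M-high, 28.5 and 22.7 CPM in G2/M-low and 3.44 and 4.09 CPM in neuron-like nuclei. After Tk1 it had the largest ratios of G2/M-low to neuron-like nuclei, 8.29-fold and 5.54-fold. Mthfd1, the trifunctional cytosolic enzyme that interconverts folate one-carbon forms, had 424 and 457 UMIs, and its 28.2 and 28.8 CPM in G2/M-high lay close to 21.6 and 22.6 CPM in neuron-like nuclei. In the G2/M-low class Mthfd1 stood at 44.4 and 27.2 CPM, so that only the wildtype-labelled library was at 2-fold.

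In mitochondria, Mthfd1l releases formate for use in the cytosol. Its 320 and 372 UMIs gave 60.7 and 50.6 CPM in G2/M-high, 43.6 and 36.3 CPM in G2/M-low and 11.3 and 13.7 CPM in neuron-like nuclei. Mthfd1l met the rule in both classes, at 5.37-fold and 3.69-fold in G2/M-high nuclei. Mthfd2, the dehydrogenase and cyclohydrolase upstream of it, had 185 and 241 UMIs and 18.4 and 19.6 CPM against 9.79 and 11.1 CPM, or 1.88-fold and 1.77-fold. Shmt2, the mitochondrial serine hydroxymethyltransferase, had 104 and 153 UMIs; its 6.503 and 13.8 CPM in G2/M-high rest on 6 and 12 UMIs, against 5.03 and 6.66 CPM in neuron-like nuclei.

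Of the 7 pentose phosphate genes, 0 met the rule in either class, against 9.66% of all genes in the G2/M-high and 9.12% in the G2/M-low class. For so few genes a count of 0 is near these shares. In the oxidative branch, G6pdx encodes glucose-6-phosphate dehydrogenase, the first and rate-limiting step; its 195 and 213 UMIs gave 13.01 and 10.4 CPM in G2/M-high and 12.1 and 11.1 CPM in neuron-like nuclei. The G2/M-low level of G6pdx was 3.17 CPM on 4 UMIs in the wildtype-labelled library, below the neuron-like interval, and 10.2 CPM on 9 UMIs in the other, within its counting error of it. Pgls, the lactonase, had 1104 and 1345 UMIs and 68.3 and 67.9 CPM, 78.4 and 96.3 CPM, and 55.3 and 60.2 CPM in the 3 classes. Pgd, which forms ribulose 5-phosphate with a further NADPH, had 323 and 409 UMIs and 17.3 and 16.1 CPM in G2/M-high against 16.9 and 19.2 CPM in neuron-like nuclei. The median log2 ratio of these 3 genes to neuron-like nuclei was 0.01 in the G2/M-high class.

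In the non-oxidative branch, transketolase, encoded by Tkt, stood apart from the other 3 genes. Tkt had 1217 and 1460 UMIs and 121 and 117 CPM in G2/M-high, 116 and 122 CPM in G2/M-low and 58.3 and 62.5 CPM in neuron-like nuclei. Its ratios to neuron-like nuclei were just at the rule's border: 2.08-fold and 1.88-fold in the G2/M-high and 1.98-fold and 1.96-fold in the G2/M-low class, all with intervals above 0. Taldo1, the transaldolase, had 789 and 878 UMIs, with 42.3 and 50.6 CPM in G2/M-high against 40.1 and 37.1 CPM in neuron-like nuclei. Rpia and Rpe, which isomerise and epimerise ribulose 5-phosphate, had 278 and 325, and 401 and 449 UMIs. Rpia was lower in G2/M-high than in neuron-like nuclei in both libraries (log2 −0.38, −1.36 to 0.46, and −0.27, −1.20 to 0.53), and Rpe differed in sign between them (−0.19 and 0.42).

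In the pairs of genes for the same step that were compared, the G2/M-high class difference was larger for 1 gene than for the other. Mthfd1 and Mthfd2 were not compared as a pair. Within each library, the log2 ratio of G2/M-high to neuron-like nuclei was larger for Rrm2 than for Rrm2b, by 2.70 (1.54 to 3.99) in the wildtype-labelled and 3.57 (2.32 to 5.02) in the knockout-labelled library. For Prps2 over Prps1 the difference was 2.02 (0.68 to 3.35) and 1.57 (0.12 to 2.99), and for Ctps over Ctps2 it was 1.12 (0.62 to 1.63) and 1.00 (0.46 to 1.54). Impdh2 exceeded Impdh1 by 2.18 (0.75 to 3.82) and 1.49 (0.16 to 2.94), and Shmt1 exceeded Shmt2 by 2.13 (0.57 to 3.86) and 1.44 (0.20 to 2.72). All 10 of these counting intervals lay above 0. In the G2/M-low class 6 of 10 did; the exceptions were Rrm2 over Rrm2b (−0.02) and Prps2 over Prps1 (1.31, −0.16 to 2.74) in the knockout-labelled library and Impdh2 over Impdh1 in both (0.80 and 0.95). The pairs and the order within them were picked with the values known, so the direction is a description. How often other pairs of genes differ in this way was not computed.

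**Figure D3:**
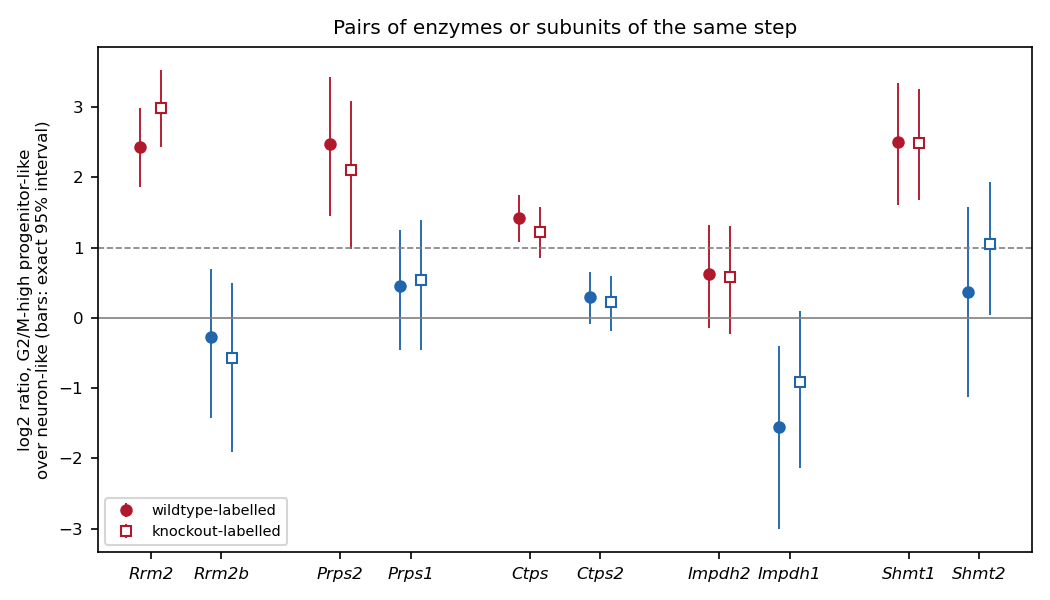
Log2 ratio of the level in G2/M-high progenitor-like to neuron-like nuclei for 5 pairs of genes of the same step, with exact 95% intervals; the dashed line marks 2-fold. The red member of each pair lies above the blue one in both libraries, with Rrm2 at 2.43 and 2.99 against Rrm2b at −0.27 and −0.58.

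Because S-phase markers were raised in the clusters of both classes, progenitor-like nuclei with at least 1000 UMIs were also divided by their own marker UMIs after thinning to 1000 UMIs. This division was added after the data were seen. Nuclei with at least 2 G2/M marker UMIs, called G2/M nuclei, numbered 442 and 351. Nuclei with at least 2 S marker UMIs and fewer than 2 G2/M marker UMIs, called S nuclei, numbered 251 and 143. Nuclei with neither kind of UMI after thinning numbered 89 and 72. Before thinning they held S markers at 413 and 530 CPM and G2 and M markers at 191 and 278 CPM. A further 161 and 124 nuclei had marker UMIs, but fewer than 2 of each kind, and were in none of these groups. The 52 and 44 nuclei with fewer than 1000 UMIs were left out. The G2/M nuclei also carried S markers, at 2945 and 2942 CPM against 3457 and 3500 CPM in the S nuclei. Tyms stood at 134 and 96.7 CPM in the G2/M nuclei and 94.3 and 91.1 CPM in the S nuclei, against 15.9 and 25.2 CPM in the nuclei with neither, which is close to its neuron-like level of 19.0 and 17.8 CPM. Rrm1 was at 79.8 and 94.6 CPM, 77.7 and 84.8 CPM, and 15.9 and 63.1 CPM in the same order, where the last values rest on 3 and 10 UMIs. Rrm2 was at 45.5 and 48.4 CPM in G2/M nuclei and at 29.6 and 12.6 CPM in S nuclei.

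Of the 15 genes with enough UMIs, Tyms and Mthfd1l were at least 2-fold higher in S nuclei than in nuclei with neither in both libraries, where 2.32% of 5556 genes met the rule. For G2/M nuclei these were 4 of 21 genes, Tyms, Rrm2, Mthfd1l and Tk1, against 5.83% of 8326 genes. Between G2/M and S nuclei 0 of 26 met it, against 2.39% of 9104 genes. The nuclei with neither kind of UMI held 1 to 4 UMIs of Rrm2, Tk1, Mthfd1l or Tyms in a library, which makes these ratios imprecise: that of Tyms in G2/M nuclei was log2 3.07 (1.496 to 5.37) and 1.94 (0.53 to 3.84). When these nuclei replaced the G2/M-low class, 3 genes (Shmt1, Shmt2 and Tk1) instead of 10 were at least 2-fold above neuron-like nuclei. They rest on 4 and 2, 2 and 3, and 2 and 1 UMIs, and the share of all genes was not computed. The mean log2 ratio of Mthfd1l went from 1.68 to −0.11, but the libraries had opposite signs. Its level was 21.2 CPM on 4 UMIs and 6.31 CPM on 1 UMI, against 11.3 and 13.7 CPM in neuron-like nuclei.

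Across the 22 clusters of at least 100 nuclei, 17 of the 34 genes peaked in one of the 4 progenitor-like clusters, against 27.1% of 13256 genes with at least 200 UMIs. A further 12 peaked in cluster 0, against 20.1% of these genes. Cluster 0 held 628 wildtype-labelled and 968 knockout-labelled nuclei. It had the lowest median depth, 717 UMIs, and 11.1% of its UMIs came from genes of ribosomal proteins, where the other clusters had 1.03% to 3.47%. Its part in these peaks was not tested. The levels in cluster 0 were 267 and 237 CPM for Pgls, 192 and 182 CPM for Tkt, 187 and 177 CPM for Taldo1 and 204 and 184 CPM for Dut. Leaving cluster 0 aside, Pgls, Taldo1 and Dut peaked in cluster 13, one of the G2/M-low clusters, and Tkt in cluster 18, one of the G2/M-high clusters.

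With both libraries summed, cluster 17, led by Dlx1 and Top2a among others, had the highest level of Tyms (174 and 93.5 CPM), Rrm1 (75.4 and 133 CPM) and Rrm2 (51.8 and 73.8 CPM). Cluster 18, the other G2/M-high cluster, had 132 and 93.1 CPM, 83.1 and 84.1 CPM, and 40.8 and 45.1 CPM of these genes, and the intervals of the clusters overlapped in each library. For Rrm1 cluster 18 was the higher of the 2 in the wildtype-labelled library. A cluster led by Htr2c and genes of cilia, cluster 1, had the highest level of Prps2, with 20.8 CPM (11.9 to 33.8) on 16 UMIs and 28.8 CPM (19.6 to 40.8) on 31 UMIs. Among neuron-like clusters, Impdh1 peaked in cluster 3 (26.2 and 25.6 CPM) and Ctps2 in cluster 2 (95.6 and 90.8 CPM). No UMI of Prps2 was found in cluster 20, which allows a level of up to 3.53 CPM over both libraries.

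**Figure D4:**
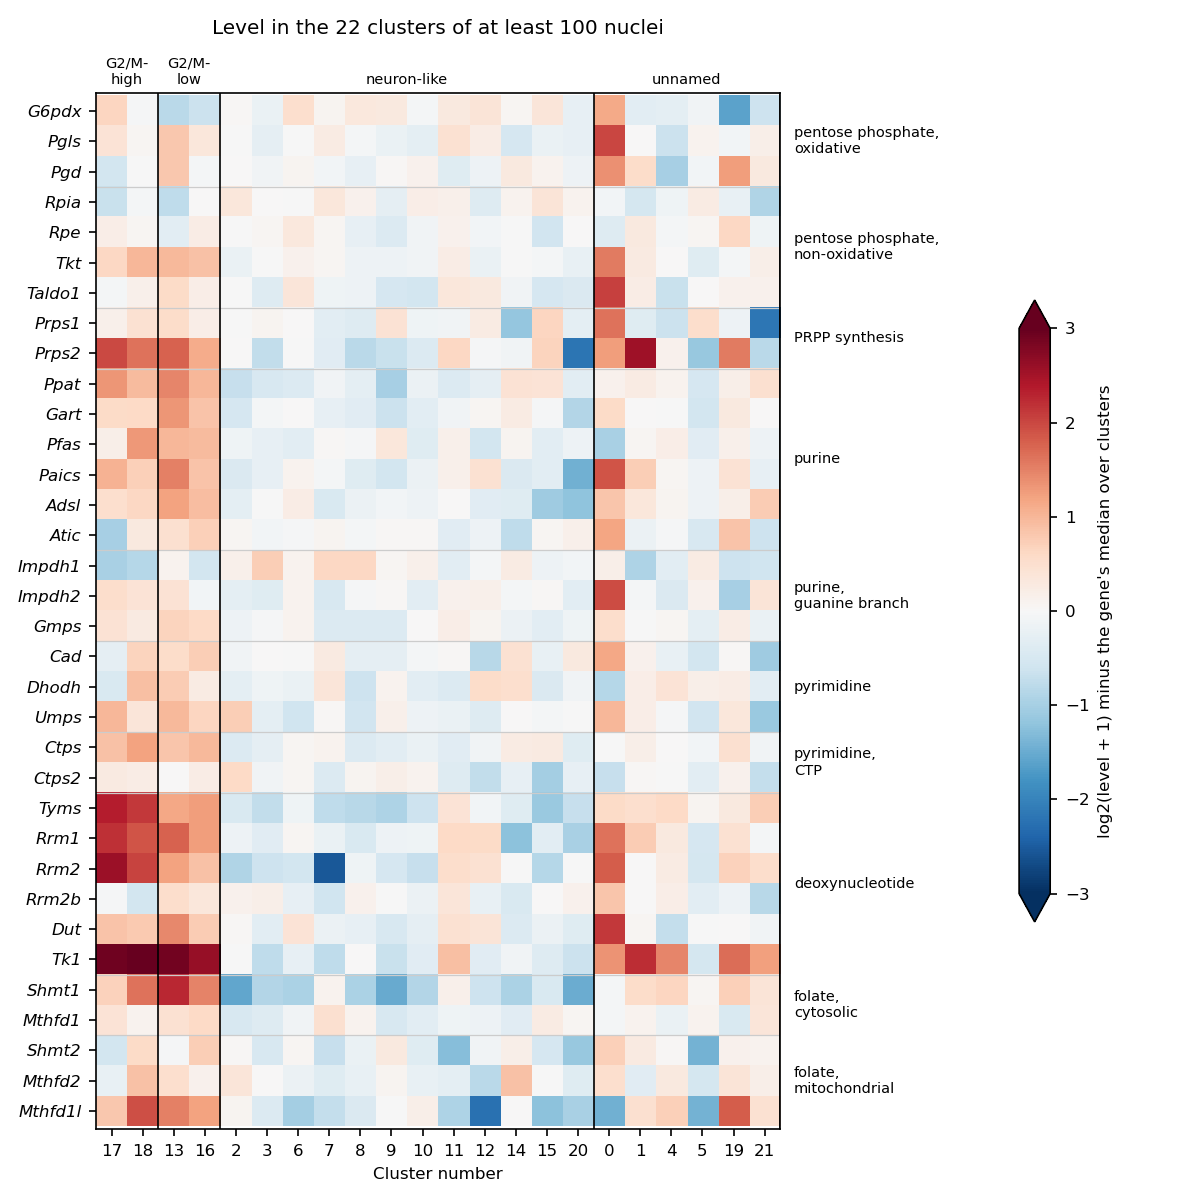
Level of each gene in the 22 clusters of at least 100 nuclei, as log2(level + 1) minus the gene's median over clusters, both libraries together; colours end at −3 and 3. Red fields gather in the 4 progenitor-like clusters on the left for the deoxynucleotide genes, in cluster 0 for Pgls, Tkt, Taldo1 and Dut, and in cluster 1 for Prps2.

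The genes whose log2(CPM + 1) over these 22 clusters was most like that of Rrm2, among 13255 genes with at least 200 UMIs, were Sgo1 (Pearson r 0.88), Mad2l1 (0.88), Casp8ap2 (0.88), Tipin (0.87) and Cenpe (0.87). Sgo1, Mad2l1 and Cenpe encode proteins of chromosome segregation, and Tipin one of the replication fork. Cenpe is also a marker by which the G2/M-high class was named. The clusters share libraries and differ in depth, so these values are a description.

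Of 74 further genes of these pathways found in the features, 65 had enough UMIs for the comparisons with neuron-like nuclei. In the G2/M-low class 10 of 65 were at least 2-fold higher than in neuron-like nuclei in both libraries, against 9.12% of all genes, among them Adk, Ak4, Dctd, Dtymk, Aldh1l1, Gldc, Phgdh, Psat1 and Psph. In the G2/M-high class these were also 10, against 9.66% of all genes, among them Adk, Dck, Dtymk, Samhd1, Mtr, Aldh1l1, Gldc, Phgdh and Psat1. Phgdh, Psat1 and Psph encode the 3 steps of serine synthesis, and Gldc the glycine decarboxylase.

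Aldh1l1, a cytosolic folate dehydrogenase and a marker of glia, was at 40.4 and 47.6 CPM in G2/M-low against 2.47 and 2.65 CPM in neuron-like nuclei. Its mitochondrial relative Aldh1l2 was among the 3 of 65 genes that were at least 2-fold higher in neuron-like than in G2/M-low nuclei (12.7% of all genes), at 54.3 and 53.4 CPM against 22.2 and 23.8 CPM; Cmpk2 and Upp2 were the others. Dctd, the dCMP deaminase, was the 1 gene of 45 that was at least 2-fold higher in the G2/M-low than in the G2/M-high class, at 38.0 and 24.9 CPM against 10.8 and 5.75 CPM, where 0.712% of all genes met this rule. None of the 45 met it in the other direction, against 3.08%. Over all nuclei, 1 of 61 such genes differed by 1.5-fold between libraries, Nme2, with 133 and 60 UMIs, against 2.72% of all genes.

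Between the libraries, 0 of the 34 genes differed by 1.5-fold or more over all nuclei, where 2.72% of 15528 genes with at least 100 UMIs did. The log2 ratio of the knockout-labelled to the wildtype-labelled library ran from −0.31 for Tyms to 0.35 for Shmt2, and for 33 of 34 genes the counting interval lay within 1.5-fold in either direction; the exception was Shmt2 (−0.02 to 0.72, on 104 and 153 UMIs). The median was −0.09 for the 34 genes and −0.01 for all genes, and 25 of the 34 had a ratio below 0, against 53.5% of all genes. The 6 purine and 3 pyrimidine genes had medians of −0.12 each and the 3 mitochondrial folate genes a median of 0.17; among these 12 only the intervals of Gart and Pfas did not include 0.

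For 6 of the 34 genes the interval did not include 0, where this held for 26.4% of the 15528 genes, so the count is no result about the list. Tyms had 33.2 and 26.9 CPM (log2 −0.31, −0.48 to −0.13). Pfas had 26.4 and 21.8 CPM (−0.28, −0.47 to −0.08), and Gart 27.6 and 23.7 CPM (−0.22, −0.41 to −0.03). For Rrm1 the levels were 31.2 and 27.1 CPM (−0.20, −0.38 to −0.03), for Dut 52.9 and 47.9 CPM (−0.14, −0.27 to −0.01), and for Gmps 74.2 and 81.2 CPM (0.13, 0.02 to 0.24). An interval clear of 0 says that 2 libraries differed beyond counting error, not that genotypes did.

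The libraries also differed in makeup. G2/M-high nuclei made up 5.55% and 4.61%, G2/M-low nuclei 9.33% and 6.38%, and cluster 0 held 9.39% and 14.5%. In a sum over all nuclei, fewer nuclei of a type and less RNA of a gene per nucleus cannot be told apart. With the UMI shares of the named classes and of the unnamed nuclei set equal, the log2 ratio was −0.23 for Tyms, −0.24 for Pfas and −0.13 for Rrm1. The median of the 34 genes was −0.05. Shares of clusters within these groups were not set equal. Cluster 0 is among the unnamed nuclei, and in the neuron-like class cluster 10 held 9.59% and 16.5% and cluster 6 held 12.2% and 8.62%. The part of these clusters in the ratios was not tested.

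**Figure D5:**
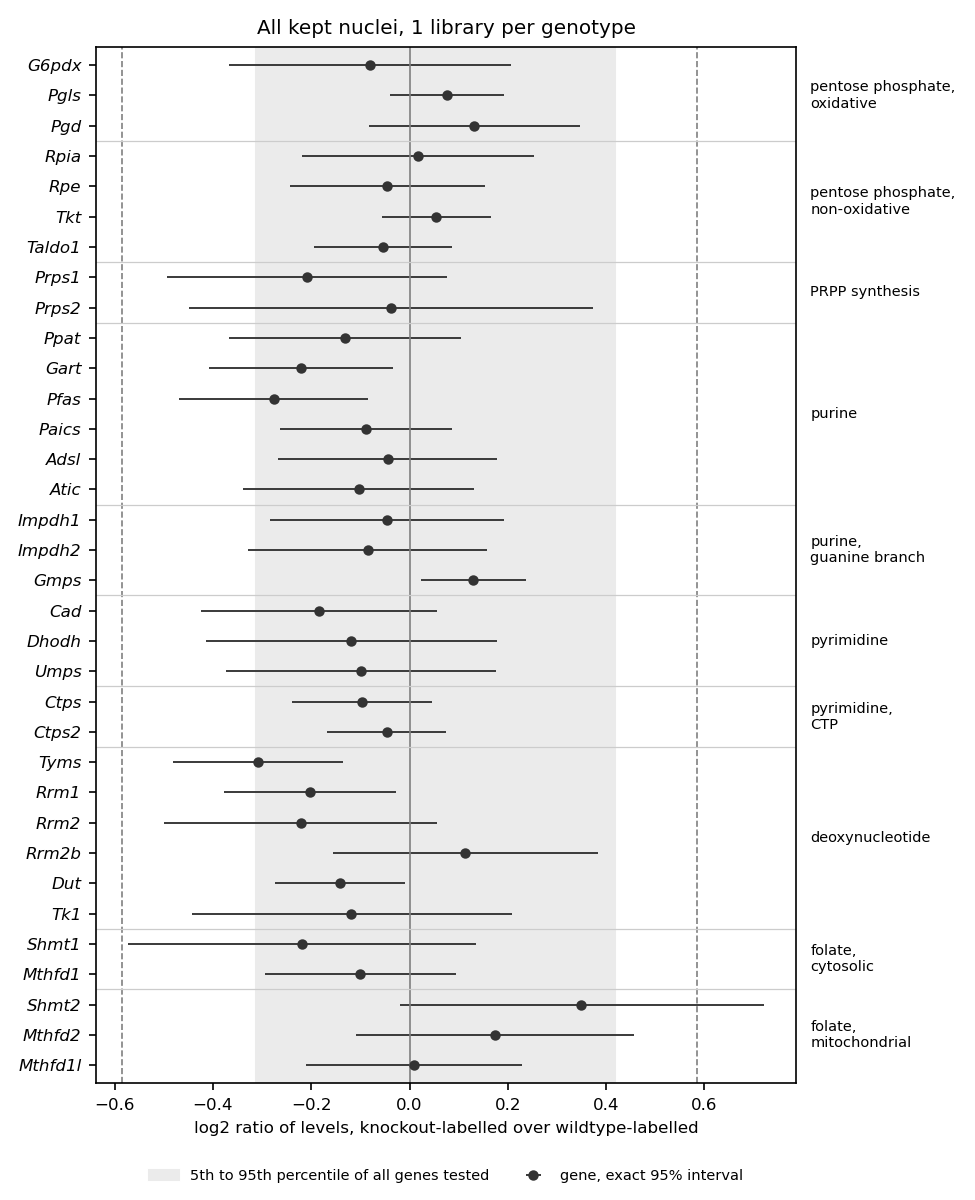
Log2 ratio of the level over all kept nuclei, knockout-labelled over wildtype-labelled, with exact 95% intervals; the grey band spans the 5th to 95th percentile of all genes tested (−0.31 to 0.42) and dashed lines mark 1.5-fold. All 34 points lie between the dashed lines, and 25 lie left of 0.

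Within classes fewer genes reached 100 UMIs. In G2/M-high nuclei 1 of 9 genes, Tyms, was past 1.5-fold, with 131 UMIs (142 CPM) and 81 UMIs (93.2 CPM, log2 −0.61, −1.03 to −0.20), and 2.53% of 4276 genes were past it. In each of the G2/M-high clusters Tyms was also lower in the knockout-labelled library, but its ratio was within 1.5-fold under 3 alternatives. With at most 1% mitochondrially encoded UMIs it was −0.44 (−0.93 to 0.04, on 96 and 60 UMIs). Without the highest doublet scores the ratio of Tyms was −0.53 (−0.96 to −0.11), and at a finer clustering −0.53 (−0.94 to −0.13). In the same class the G2 and M markers summed to 7215 and 6997 CPM and the S markers to 3026 and 2894 CPM, while the 10 endothelial markers summed to 52.0 and 133 CPM with 1 of them at 0. The part of these markers in the difference was not tested. In G2/M-low nuclei Tyms stood at 59.4 and 63.5 CPM, and 0 of 11 genes were past 1.5-fold, against 3.1% of 5025 genes.

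Rrm2 fell under the 100 UMI minimum in the G2/M-low class, where 35 and 8 UMIs gave 27.7 and 9.06 CPM, a log2 ratio of −1.61 (−2.93 to −0.48). Its level in G2/M-high nuclei went the other way, from 43.4 CPM to 51.8 CPM, with overlapping intervals. In neuron-like nuclei 0 of 31 genes were past 1.5-fold, against 2.91% of 13655 genes. Gmps was higher there in the knockout-labelled library, at 78.1 CPM against 65.3 CPM (log2 0.26, 0.12 to 0.40), and Rrm1 lower, at 18.02 CPM against 22.7 CPM (−0.33, −0.59 to −0.07). The intervals of the other genes tested there included 0.

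In GENCODE on GRCm39 the 34 genes lie on 16 chromosomes. Among those with the largest class differences are Tk1 at chr11:117702770-117717042 (minus strand), Tyms at chr5:30263198-30278633 (minus), Rrm1 at chr7:102090890-102119709 (plus), Rrm2 at chr12:24757811-24764145 (plus), Shmt1 at chr11:60661185-60708167 (minus) and Prps2 at chrX:166125769-166165981 (minus). Of the 34 genes, 9 overlap no other annotated gene, Tyms among them. Overlaps on the opposite strand exist for 23 and on the same strand for 10; the opposite partners of Tk1 include Afmid and Syngr2, and Shmt1 shares its strand with Top3a. The counts of such genes are uncertain to the extent that shared stretches were counted.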

How the data were processed

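The authors deposited unnormalised UMI counts for each gene in each barcode. Cell Ranger 6.1.1 wrote them, per the file headers, whereas the submitters' processing notes name Cell Ranger 3.0.1, STAR and the GRCm39 build. Whether intronic reads were counted is not given in the sources used here. Nuclei with at least 500 genes and at most 5% mitochondrially encoded UMIs were kept, 6686 of 9763 and 6680 of 10811 barcodes. Scrublet marked 0 nuclei in each library and so had not worked; its scores served an alternative only. Clustering with scanpy 1.11.5 used 2000 variable genes per library, 30 components, 15 neighbours and Leiden resolution 1; none of the 34 genes was among the 3052 variable genes. Clusters were named from marker lists, with thresholds set after the clusters were seen, and are not the authors' annotation.

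UMIs were summed per library and class. Levels have exact Poisson intervals, and ratios exact conditional binomial (Clopper-Pearson) intervals; no test between libraries was made, since each genotype has 1. A gene was counted between libraries at 1.5-fold with at least 100 UMIs, and between classes at 2-fold in both libraries with at least 50 UMIs. TMM factors came from edgeR 4.0.16. The ratios, their intervals and the fold rules were checked on simulated Poisson counts. For the rule between classes the same simulated counts stood for both libraries, so their agreement was not checked. Level intervals, TMM, thinning and class names were not checked in this way. Every gene of the list is described; the other pathway genes named are among those past 2-fold, and 1 such result is not reported here. The selection rule is a list of symbols and applies no measured value, but the genes and lists were chosen with earlier results of these data known. The UMI totals before filtering were 19048835 and 22504908, and PCR copies are already merged by UMI.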

Additional observations from a re-analysis of the deposited data

How the results depend on the processing

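No paired analysis was possible because each genotype has 1 library. The count of 10 genes at least 2-fold higher in G2/M-low than in neuron-like nuclei became 16 at 1.5-fold and 6 at Leiden resolution 2. It became 3 with the nuclei that had neither kind of cycle marker UMI after thinning. In the last of these the mean log2 ratio of Mthfd1l was −0.11, with opposite signs in the libraries on 4 and 1 UMIs. The count of G2/M-high over neuron-like nuclei became 16 at 1.5-fold. The 0 genes higher in G2/M-high than in G2/M-low nuclei became 2 at 1.5-fold, 1 at resolution 2, 3 when nuclei with at least 3 and with 0 dividing marker UMIs were compared, 4 for G2/M and 2 for S nuclei against those with neither. Over all nuclei, 1 gene was past a lower fold limit between libraries, and in neuron-like nuclei 2. Within G2/M-high nuclei the 1 gene past 1.5-fold became 0 at a 1% mitochondrial limit, without the highest doublet scores or at resolution 2, 5 with 20 UMIs as minimum and 6 with 1 UMI per library. Within G2/M-low nuclei the 0 genes became 4 and 5 with these minimums, 1 at the lower fold limit and 3 at resolution 2. The other counts stayed within 1.5 times, and the 204 log2 ratios between libraries within their counting intervals. Resolution 0.5 gave no G2/M-low class, so the comparisons with the G2/M-low class could not be computed there. Apart from S and G2/M nuclei against those with neither, the share of all genes was not computed under these settings. A lower fold or UMI limit can raise the count of any list, so these changes are no result about the list. Their cause was not tested. Depth limits the comparison of libraries within classes: in G2/M-high nuclei 9 of 34 genes reached 100 UMIs.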
